A study of Mus musculus with 12 samples.

Results

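The thrombospondins, the CCN proteins and Smoc2 are secreted matricellular proteins, which sit in the extracellular matrix and signal to cells without building fibres. The 10 genes described here are Thbs1, Thbs2, Thbs3, Thbs4, Ctgf (now Ccn2), Cyr61 (Ccn1), Nov (Ccn3), Wisp1 (Ccn4), Wisp2 (Ccn5) and Smoc2. They were chosen by symbol, as gene families, with the fold changes and adjusted p-values of the 3 comparisons below already known from an earlier analysis of the same libraries. Their changes are therefore given as a description, and no evidence is drawn from how many of them passed a threshold. All 10 had a row among the 23955 gene symbols of the count table, and 9 passed the filter on low counts that left 12323 genes. The gene that did not pass was Thbs4.

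The cells were a purchased stock of bone-marrow mesenchymal stem cells from female C57BL/6 mice, at passages 9 to 10, whose RNA was sequenced. For 14 days every culture was kept in insulin (5 ug/mL), dexamethasone (1 uM) and isobutylmethylxanthine (0.5 mM), which together induce fat-cell formation. The 3 groups differed in what was added with it: 0.1% DMSO as the vehicle, 500 nM rosiglitazone (ROSI), which activates PPARγ, or 50 nM tributyltin (TBT), an organotin that binds the retinoid X receptors and PPARγ. Each group had 4 libraries, and the ligands were given at different doses. The vehicle cultures had the cocktail as well, so each comparison is between cultures under adipogenic induction. Nothing in the labels ties a library to a culture of its own, and so the p-values reflect library-to-library spread that could be technical.

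Thrombospondins are large calcium-binding glycoproteins. Thbs1 and Thbs2 encode the trimeric ones, which carry type 1 repeats, bind the receptors CD36 and CD47 and restrain blood vessel growth; Thbs1 can also activate latent TGF-β. Thbs3 and Thbs4 encode pentameric ones, as does Comp. CCN proteins are built of modules that resemble IGF-binding proteins, von Willebrand factor type C domains and thrombospondin type 1 repeats, and all but Wisp2 end in a cystine-knot module. Ctgf and Cyr61 are textbook targets of the YAP and TAZ coactivators, which act with TEAD factors and respond to tension and cell spreading, and Ctgf is induced by TGF-β. Wisp1 and Wisp2 were named as genes induced by WNT signalling, and Wisp2 is known as a secreted product of fat-cell precursors. Smoc2 encodes a modular calcium-binding protein related to SPARC. The longest annotated coding sequence of Wisp2 has 251 codons, against 348 for Ctgf, 354 for Nov, 367 for Wisp1 and 379 for Cyr61, while Thbs1 has 1171 and Thbs2 1172 (GENCODE M21).

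The 12 libraries held between 4027152 and 7474654 counts, so that 1 read was worth 0.129 to 0.251 CPM (the count scaled to a common library size with TMM factors). TBT replicate 4 stood apart from its group: its mean correlation across genes was 0.953 with the other TBT libraries and 0.961 with the DMSO libraries. The ribosomal RNA precursor Rn45s took 6.85% of its counts, 0.399 to 0.67% in TBT replicates 1 to 3 and 1.36 to 9.27% in the DMSO and ROSI libraries; the part of this difference in the results was not tested. Fabp4, the fat-cell fatty acid carrier, averaged 147 ± 114 CPM with DMSO, 1163 ± 93.4 with ROSI and 464 ± 158 with TBT, and Adipoq, the adiponectin gene, 10.7 ± 3.26, 13.3 ± 1.90 and 2.30 ± 0.856. Adipocyte markers (8 of 8 above 1 CPM in each group) summed to 254 to 631 CPM in DMSO, 1813 to 1941 in ROSI and 657 to 1025 in TBT, sums carried mostly by Fabp4 and Cidec. Of these 8 genes, 5 were higher and 1 lower with ROSI, and 2 higher and 2 lower with TBT against DMSO (edgeR adjusted p under 0.05). Among all tested genes, 10.0% were higher and 12.6% lower with ROSI, and 8.22% and 7.03% with TBT. Cfd, the adipsin gene, fell with both ligands (-0.82 ± 0.28 and -1.90 ± 0.31 on the log2 scale). Stromal markers (7 of 8 above 1 CPM in each group) summed to 2173 to 2927 CPM in DMSO, 758 to 856 in ROSI and 1395 to 1850 in TBT. These sums were carried mostly by Pdgfra and Ly6a. Of the 7 stromal genes tested, 4 were lower and 0 higher with ROSI, and 2 lower and 0 higher with TBT against DMSO. Thy1 (-0.40 ± 0.29), Nt5e (0.18 ± 0.34) and Vcam1 (0.26 ± 0.14) did not pass with ROSI. In bulk RNA, fewer cells of a type and less RNA of a gene per cell cannot be told apart, and the part of cell make-up in the changes below was not tested.

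The families were far from even in their levels. Per kilobase of exon, Thbs2 ranked 29 among the 12213 tested genes that had a length, Thbs1 400, Cyr61 530, Wisp2 2120, Ctgf 4249, Smoc2 5806, Wisp1 8138, Nov 10963 and Thbs3 11259, by the mean level over all libraries. Thbs2 alone took 0.499 ± 0.045% of all counts in DMSO (SD, n = 4 here and below), 0.086 ± 0.013% in ROSI and 0.447 ± 0.045% in TBT. Family shares, here and below, are of the listed members alone, without Comp or the remaining CCN gene, Wisp3. In DMSO, Thbs2 made up 87.8 ± 2.62% of thrombospondin expression on this per-length scale and Thbs1 12.0 ± 2.63%. Among the CCN genes in DMSO, Cyr61 made up 64.6 ± 1.71%, Wisp2 18.1 ± 2.25%, Ctgf 12.1 ± 0.931%, Wisp1 3.87 ± 1.12% and Nov 1.40 ± 0.15%. Neighbours in the DMSO order of levels per length were separated beyond their spread except Ctgf (17.5 ± 4.07 CPM per kilobase) and Smoc2 (13.4 ± 2.38), Ctgf and Wisp2 (26.1 ± 6.02), Cyr61 (93.4 ± 21.2) and Thbs1 (113 ± 26.9), and Thbs3 (1.82 ± 0.394) and Nov (1.99 ± 0.214), whose libraries overlapped.

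**Figure D1:**
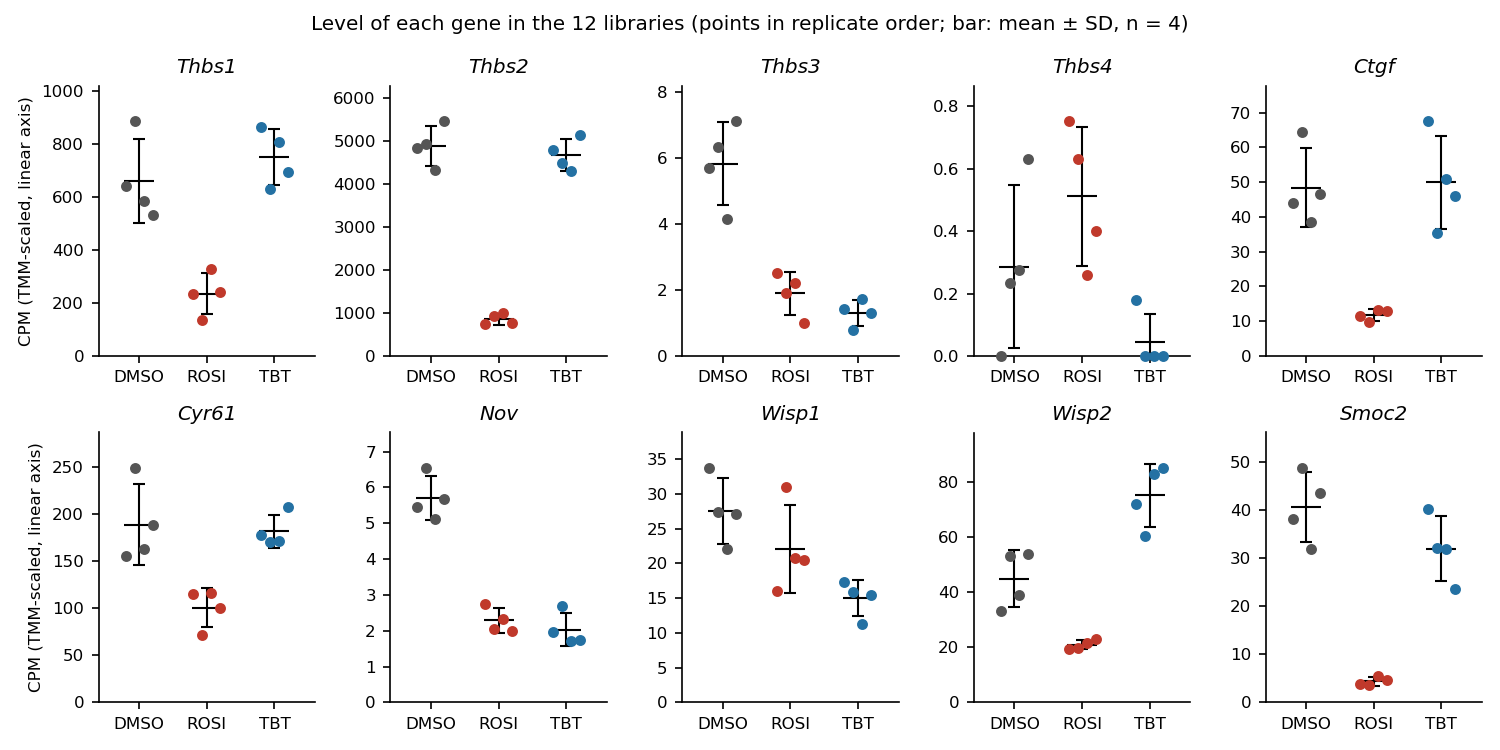
Level of each of the 10 genes (linear CPM axes from 0) in the 4 libraries of DMSO, ROSI and TBT, with the mean ± SD. The ROSI libraries lie below both other groups for Thbs1, Thbs2, Ctgf, Cyr61, Wisp2 and Smoc2, while Thbs3 and Nov are low in ROSI and TBT alike.

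Thbs2, an inhibitor of vessel growth that also shapes collagen fibrils, was the most abundant gene of the set and fell with ROSI. It stood at 4827, 4915, 4323 and 5451 CPM in DMSO replicates 1 to 4, at 739, 931, 987 and 753 in ROSI and at 4778, 4475, 4284 and 5140 in TBT. All ROSI libraries lay below all others, and the DMSO and TBT libraries overlapped. Thbs2 fell 5.72-fold in mean CPM with ROSI, by a log2 fold change of -2.52 ± 0.15 (SE; edgeR adjusted p = 2.9e-08), the second smallest p of all 12323 genes. Against DMSO, TBT gave -0.06 ± 0.14 (95% interval -0.36 to 0.24, edgeR adjusted p = 0.79).

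The promoter of Thbs2 is shown because this gene carried the largest change in reads of the set. The window of 250 bases before to 50 after its annotated start lies on the minus strand at chr17:14694213-14694512 (RefSeq, GRCm38.p6; the counts themselves were made on mm9). Capitals mark matches to motifs searched on both strands: the TEAD site GGAATG, the AP-1 site TGANTCA, the CArG box bound by SRF, the TATA box TATAAA and CAGACA, a short element bound by SMAD proteins.
Thbs2: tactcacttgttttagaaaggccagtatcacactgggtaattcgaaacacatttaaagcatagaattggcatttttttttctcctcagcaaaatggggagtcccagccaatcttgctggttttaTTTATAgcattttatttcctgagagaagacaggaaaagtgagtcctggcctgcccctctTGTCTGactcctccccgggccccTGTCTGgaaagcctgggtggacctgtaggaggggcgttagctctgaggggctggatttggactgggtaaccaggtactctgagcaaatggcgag
Reverse-strand CAGACA matches begin at positions -67 and -44 from the start, and a reverse-strand TATAAA match at -126. Of 32851 RefSeq promoter windows of this length, 21.0% held CAGACA and 13.6% TATAAA on either strand. A match describes letters only.

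Thbs1, the other trimeric thrombospondin, was also lowest in ROSI, at a lower level than Thbs2. Its CPM was 643, 887, 584 and 532 in DMSO, 232, 138, 328 and 241 in ROSI and 864, 631, 810 and 696 in TBT. The ROSI libraries again lay below all others, and DMSO and TBT overlapped. Thbs1 fell 2.82-fold with ROSI (log2 fold change -1.49 ± 0.22, edgeR adjusted p = 8.3e-05). With TBT it differed by 0.18 ± 0.21 (95% interval -0.27 to 0.63, edgeR adjusted p = 0.58). On the per-length scale Thbs1 was 21.5 ± 5.78% of thrombospondin expression in ROSI and 14.0 ± 2.03% in TBT.

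The pentameric thrombospondins were scarce. Thbs3 had 24, 27, 30 and 45 counts in DMSO, 10, 12, 17 and 5 in ROSI and 8, 4, 8 and 6 in TBT, or 5.82 ± 1.26, 1.90 ± 0.649 and 1.30 ± 0.394 CPM. The DMSO libraries lay above all others, and ROSI and TBT overlapped. It fell with both ligands, by -1.59 ± 0.32 with ROSI (edgeR adjusted p = 0.0013) and by -2.14 ± 0.34 with TBT (edgeR adjusted p = 8.9e-04), on the log2 scale. Thbs4 had 0, 1, 2 and 4 counts in DMSO, 3, 4, 2 and 2 in ROSI, and 1, 0, 0 and 0 in TBT. At this depth no difference in Thbs4 can be stated; with no filter, its edgeR adjusted p over 22434 genes was 0.67, 0.28 and 0.13 for ROSI against DMSO, TBT against DMSO and TBT against ROSI.

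Reads on genes that should be silent also differed between the groups, which bears on the scarce members. The 1495 sensory receptor genes with a length averaged 0.137 ± 0.058 CPM per kilobase in DMSO, 0.018 ± 0.0021 in ROSI and 0.039 ± 0.010 in TBT. On the same scale Thbs3 was at 1.82 ± 0.394, 0.596 ± 0.203 and 0.409 ± 0.123, and Nov at 1.99 ± 0.214, 0.797 ± 0.120 and 0.708 ± 0.161. Both genes were therefore several times above that background in every group, but the part of background reads in their falls was not tested. Thbs4, at 0.089 ± 0.082 in DMSO, was not above it there.

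Ctgf, a fibrosis-linked CCN protein known to hold back fat-cell differentiation in culture, fell with ROSI. Its DMSO libraries held 44.0, 64.6, 38.5 and 46.6 CPM, against 11.5, 9.64, 13.3 and 12.8 in ROSI and at 67.6, 35.3, 50.9 and 46.1 in TBT. The ROSI libraries lay below the other groups by a wide gap, and the TBT libraries spanned the DMSO range. The ROSI change was 4.09-fold (log2 fold change -2.02 ± 0.21, edgeR adjusted p = 2.9e-06). The TBT change was 0.05 ± 0.19 (95% interval -0.35 to 0.46, edgeR adjusted p = 0.87), and its sign depended on the libraries and the scaling.

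Cyr61, the other classical YAP target of the family, had DMSO levels of 155, 249, 162 and 188 CPM, ROSI levels of 115, 71.1, 116 and 99.9 and TBT levels of 178, 170, 171 and 207. All ROSI libraries lay below all DMSO and TBT libraries. The fall with ROSI was 1.88-fold (log2 fold change -0.91 ± 0.17, edgeR adjusted p = 8.0e-04). TBT differed from DMSO by -0.05 ± 0.17 (95% interval -0.41 to 0.30, edgeR adjusted p = 0.85); here too the sign was not stable.

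The Cyr61 promoter is printed as the only CCN promoter of the RefSeq table used (minus strand, chr3:145649936-145650235, GRCm38.p6), with the same motifs in capitals.
Cyr61: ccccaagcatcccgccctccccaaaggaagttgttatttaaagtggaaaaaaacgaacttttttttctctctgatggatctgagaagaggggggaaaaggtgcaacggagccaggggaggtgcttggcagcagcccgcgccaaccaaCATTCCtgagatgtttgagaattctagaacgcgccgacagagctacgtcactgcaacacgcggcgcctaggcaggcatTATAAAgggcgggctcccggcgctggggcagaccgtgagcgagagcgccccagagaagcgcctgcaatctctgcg
It holds a TEAD match on the reverse strand at -103, which reads CATTCC here, and a TATA box at -25. The TEAD letters occur in 14.7% of all windows. Of the 10 genes, 4 had an entry. The Thbs4 window held TEAD letters at -197 and -192 and CAGACA letters at -227, and the Thbs3 window none of the 5 motifs. No AP-1 match (7.81% of all windows) or CArG box (1.63%) lay in any of the 4.

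Nov was the scarcest CCN gene and, like Thbs3, was lower with both ligands. Its counts were 23, 28, 37 and 36 in DMSO, 11, 13, 18 and 10 in ROSI and 11, 14, 8 and 8 in TBT, or 5.70 ± 0.613, 2.29 ± 0.345 and 2.03 ± 0.462 CPM. No DMSO library overlapped with a treated one, and ROSI and TBT overlapped. The log2 fold change was -1.32 ± 0.26 with ROSI (edgeR adjusted p = 0.0013) and -1.47 ± 0.27 with TBT (edgeR adjusted p = 0.0024).

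Wisp1, which promotes growth of osteoblast precursors, measured 33.7, 27.4, 22.1 and 27.0 CPM under DMSO, 16.0, 31.0, 20.7 and 20.5 in ROSI and 17.3, 15.8, 11.3 and 15.4 in TBT. TBT lay below all DMSO libraries, while ROSI overlapped with both groups. It fell with TBT (-0.87 ± 0.20, edgeR adjusted p = 0.011), and its difference with ROSI did not pass (-0.30 ± 0.20, 95% interval -0.72 to 0.11, edgeR adjusted p = 0.31).

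Wisp2, the CCN protein without the C-terminal module, moved in opposite directions with the ligands. Its level was 33.3, 53.3, 39.1 and 53.9 CPM under DMSO, 19.6, 19.6, 21.6 and 23.1 under ROSI and 72.2, 60.4, 82.8 and 85.2 under TBT. The groups did not overlap: ROSI lay lowest and TBT highest. Wisp2 fell with ROSI by a log2 fold change of -1.10 ± 0.17 (edgeR adjusted p = 1.4e-04) and rose with TBT by 0.74 ± 0.16 (edgeR adjusted p = 0.0075). Its transcripts are GC-rich, at the 93.2 percentile of tested genes, and with GC-corrected offsets, an alternative added after the data were seen, the TBT value was 1.01. In mean share of CCN expression per length, Wisp2 was 18.1 ± 2.25% in DMSO, 17.3 ± 2.40% in ROSI and 28.1 ± 2.45% in TBT.

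**Figure D2:**
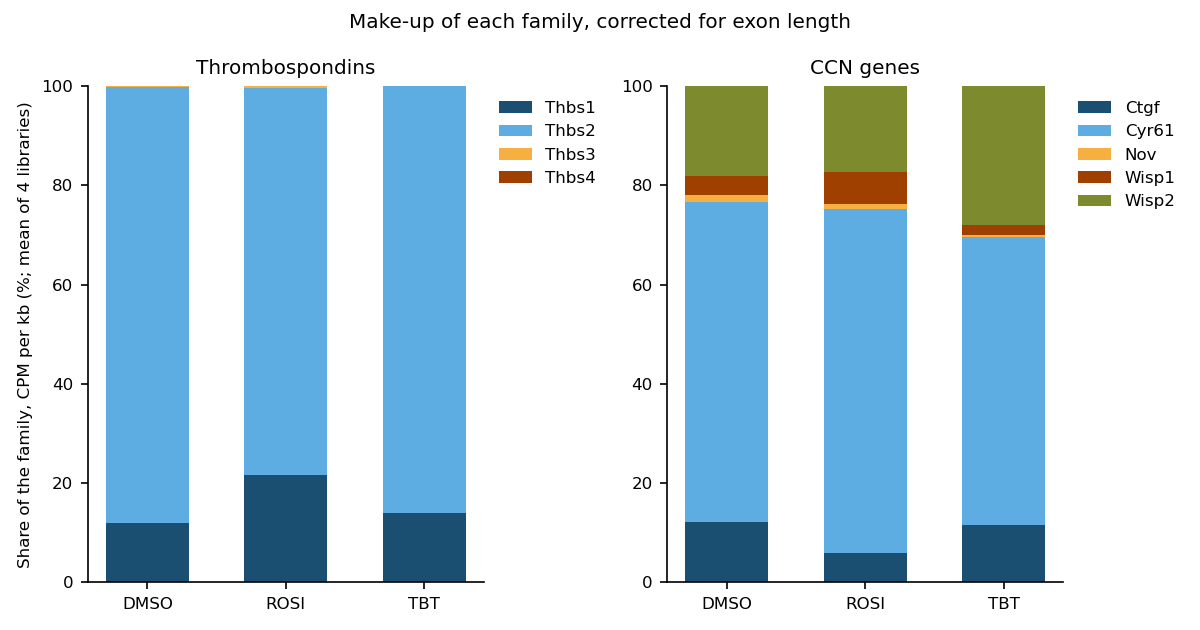
Stacked mean shares (percent of CPM per kilobase, 4 libraries per group) of each gene within the listed thrombospondins and the listed CCN genes, without Comp and Wisp3. Thbs2 fills 87.8% of the first bar and 78.0% of the ROSI bar, and Wisp2 takes 28.1% of the CCN bar in TBT against 18.1% in DMSO.

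Smoc2, a matrix protein with calcium-binding modules, had the deepest fall of the set. DMSO libraries measured 38.2, 48.9, 32.0 and 43.6 CPM, ROSI libraries 3.76, 3.63, 5.56 and 4.61, and TBT libraries 40.2, 32.2, 31.9 and 23.7. The ROSI libraries held 15, 23, 43 and 23 counts and lay far below both other groups, which overlapped. Smoc2 fell 9.27-fold with ROSI (log2 fold change -3.18 ± 0.21, edgeR adjusted p = 4.9e-08), the seventh smallest p of all tested genes. Its gene span, introns included, overlaps those of 2 noncoding genes, 4930474M22Rik and Gm52280. Whether their exons overlap, and so share reads, was not tested. With TBT, Smoc2 differed by -0.34 ± 0.18 (95% interval -0.71 to 0.04, edgeR adjusted p = 0.20). Smoc2 and Thbs2, which had the largest falls with ROSI, both lie on chromosome 17. The RefSeq annotation has 2 genes between them, 0 of them protein-coding. The part of this location in their falls was not tested.

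In counts, 8 of the 9 tested members were lower and 0 higher in ROSI than in DMSO, beside 12.6% lower and 10.0% higher among all tested genes. In TBT against DMSO, 3 were lower (Thbs3, Nov and Wisp1) and 1 higher (Wisp2), beside 7.03% and 8.22% of all genes. The median log2 fold change of the 9 was -1.49 with ROSI and -0.06 with TBT, beside 0.01 and -0.01 over all tested genes. Because the genes were chosen with these results known, nothing is read from these counts, and both comparisons share the DMSO libraries.

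**Figure D3:**
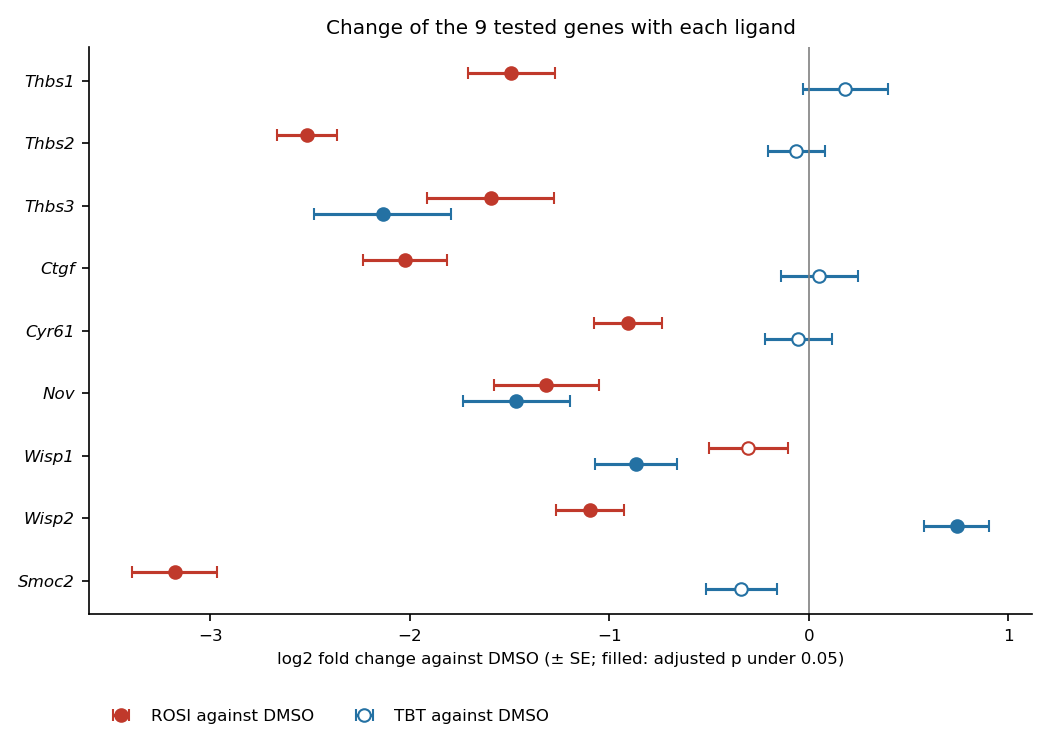
Log2 fold change ± SE against DMSO of the 9 tested genes with ROSI (red) and TBT (blue); filled points passed the adjusted threshold. ROSI values run from -3.18 for Smoc2 to -0.30 for Wisp1, and TBT values from -2.14 for Thbs3 to 0.74 for Wisp2.

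The direct comparison of the ligands, at their different doses, shares its libraries with the other comparisons. In TBT against ROSI, 6 of 9 were higher and 0 lower, beside 12.8% higher and 11.1% lower of all genes. The higher ones were Smoc2 (log2 fold change 2.84 ± 0.21, 7.29-fold), Thbs2 (2.45 ± 0.15, 5.48-fold), Ctgf (2.08 ± 0.21, 4.22-fold), Wisp2 (1.84 ± 0.17, 3.59-fold), Thbs1 (1.67 ± 0.22, 3.19-fold) and Cyr61 (0.86 ± 0.17, 1.81-fold). Their edgeR adjusted p ran from 3.7e-08 for Thbs2 to 0.0019 for Cyr61. The other three did not pass: Thbs3 (-0.54 ± 0.38, 95% interval -1.35 to 0.27), Nov (-0.15 ± 0.30, -0.77 to 0.47) and Wisp1 (-0.56 ± 0.20, -0.995 to -0.131, edgeR adjusted p = 0.055). Wisp1 passed as lower in TBT without DMSO replicate 3 (edgeR adjusted p = 0.049), ROSI replicate 1 (0.037) or TBT replicate 4 (0.046).

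Across the 12 libraries the members fell into patterns that can be set side by side by the root mean square difference of their centred log2 CPM. The nearest pairs were Thbs1 with Ctgf (0.284), Thbs2 with Smoc2 (0.345) and Thbs2 with Ctgf (0.368), and the farthest was Wisp1 with Smoc2 (1.48). Thbs3 was nearest to Nov (0.436). Among 10226 other tested genes with a mean of at least 5 CPM, those nearest to Thbs2 were Abca9 (0.257), Apod (0.266) and Abca8a (0.268), and those nearest to Smoc2 were Apol9b (0.275), Apod (0.306) and Col8a1 (0.306). Nearest to Ctgf were Npr3 (0.208), Dcn, a small proteoglycan that binds collagen (0.248), and Fry (0.253), and nearest to Thbs1 were Akr1c14 (0.250), Aff3 (0.255) and Ogn (0.257). Nearest to Cyr61 were Dio3os (0.136), S1pr1 (0.15) and the chemokine gene Cxcl12 (0.168). Wisp1 was nearest to Loxl4 (0.165), Il1rap (0.205) and Ino80 (0.212), and Wisp2 to Plekha2 (0.253), Synpo2 (0.296) and Trim25 (0.302). The median difference over the 10226 genes was 1.22 for Thbs2, 1.44 for Smoc2, 1.02 for Ctgf, 0.884 for Thbs1, 0.566 for Cyr61, 0.542 for Wisp1 and 0.818 for Wisp2. All of these values share libraries and are descriptions.

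Other matricellular genes went in both directions. Of 19 relatives, 15 were tested. With ROSI 6 were lower and 3 higher, and with TBT 2 lower and 2 higher. Lower with ROSI were Spp1, the integrin ligand osteopontin (from 404 ± 90.1 to 92.8 ± 14.5 CPM, -2.12 ± 0.21), Spock3 (-2.05 ± 0.31) and the tenascin gene Tnc (-1.21 ± 0.20). With TBT, Postn, the matricellular protein periostin, rose by 1.23 ± 0.21, from 44.4 ± 9.53 to 103 ± 32.0 CPM, Spp1 fell (-1.07 ± 0.20) and so did Comp (-1.45 ± 0.31). Comp, the third pentameric thrombospondin, averaged 10.6 ± 3.28 CPM under DMSO, 5.95 ± 2.38 under ROSI and 3.86 ± 1.00 under TBT, and its ROSI difference did not pass (-0.81 ± 0.29, edgeR adjusted p = 0.057).

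Receptors of these proteins went in both directions. Of 19 tested receptors and partners, 2 were higher and 4 lower with ROSI, and 1 higher and 3 lower with TBT. Cd36, a thrombospondin receptor that is also the fatty acid transporter of fat cells, rose with ROSI from 164 ± 150 to 1233 ± 129 CPM (2.90 ± 0.39) and with TBT to 585 ± 115 (1.83 ± 0.38). The integrin subunits Itga3 (-0.90 ± 0.13) and Itga4 (-2.33 ± 0.36, from 3.18 ± 0.622 to 0.585 ± 0.170 CPM) fell with ROSI, while Itga6 (-1.14 ± 0.23) and Calr, which encodes calreticulin (-0.98 ± 0.22), fell with TBT. The part of background reads in the fall of the scarce Itga4, and of Tead2 and Lgr5 below, was not tested. Itga6 was called in both comparisons and rose with ROSI (0.91 ± 0.20).

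Among 20 YAP/TAZ targets other than Ctgf and Cyr61, 9 were lower and 1 higher with ROSI, and 2 lower and 3 higher with TBT. The ROSI falls included Axl, a receptor tyrosine kinase (-1.14 ± 0.12), Dock5 (-0.98 ± 0.13) and Nuak2 (-1.25 ± 0.25). With TBT, Igfbp3 (1.37 ± 0.18) and Arhgef17 (0.72 ± 0.13) rose while Axl fell (-0.63 ± 0.12). The median was -0.33 with ROSI and 0.08 with TBT. In TBT against ROSI 11 of the 20 were higher, led by Arhgef17 (1.03 ± 0.13), Igfbp3 (0.95 ± 0.18) and Ankrd1 (0.93 ± 0.18), and 1 lower. Of the 14 factors of the pathway itself, 2 were lower with ROSI, Vgll3 (-0.97 ± 0.14) and Tead3 (-0.81 ± 0.22). With TBT 2 were lower, Tead3 (-0.78 ± 0.22) and Tead2 (-1.03 ± 0.31, from 3.35 ± 0.530 to 1.64 ± 0.373 CPM), and Wwtr1, which encodes TAZ, was higher (0.50 ± 0.14).

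**Figure D4:**
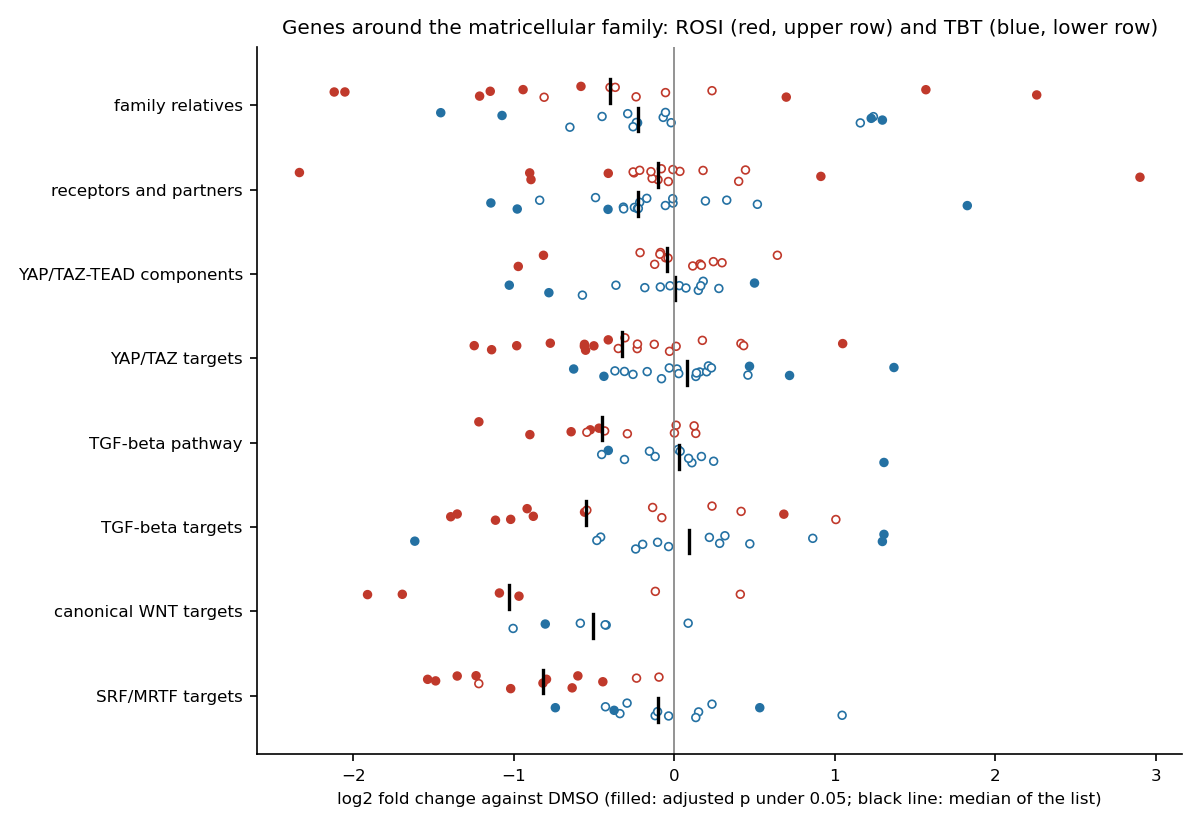
Log2 fold change against DMSO of each tested gene in 8 lists around the family, with ROSI in red above and TBT in blue below; filled points passed the adjusted threshold and black lines are medians. List medians with ROSI lie between -1.03 (canonical WNT targets) and -0.05 (YAP/TAZ-TEAD components), and those with TBT between -0.51 and 0.09.

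TGF-β genes were lower with ROSI in part. Of 12 tested ligands, receptors and transducers, 5 were lower with ROSI, including Ltbp1, which stores latent TGF-β in the matrix (-1.22 ± 0.14), Tgfb3 (-0.90 ± 0.18) and Lrrc32 (-0.64 ± 0.15). With TBT 1 was lower, Tgfbr2 (-0.41 ± 0.12), and 1 higher, Ltbp2 (1.31 ± 0.28). Of 14 TGF-β targets, 7 were lower and 1 higher with ROSI, among them Acta2 (-1.02 ± 0.16), Col1a1 (-1.39 ± 0.22) and Tagln (-1.35 ± 0.22). With TBT 1 was lower, Timp1 (-1.62 ± 0.29), and 2 higher, Ltbp2 and Tgfbi (1.30 ± 0.36).

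Of 6 tested WNT targets, 4 were lower with ROSI: Ccnd1 (-1.69 ± 0.16), Axin2 (-1.09 ± 0.19), Lgr5 (-1.91 ± 0.46) and Tcf7, and 1 with TBT, Ccnd1 (-0.80 ± 0.16). The list of 13 SRF targets also holds Srf itself and Mkl1, which encodes a cofactor of SRF. Of the 13, 10 were lower with ROSI, among them Fhl2 (-1.23 ± 0.18), Tpm1 (-0.80 ± 0.12), Cnn1 (-1.49 ± 0.23) and the cofactor gene Mkl1 (-0.60 ± 0.18). With TBT 2 were lower, Zyx (-0.74 ± 0.17) and Flna (-0.37 ± 0.12), and 1 higher, Tpm2 (0.53 ± 0.17). In TBT against ROSI 8 of the 13 were higher and 0 lower, led by Tpm2 (1.35 ± 0.17), Tpm1 (0.95 ± 0.12) and Fhl2 (1.37 ± 0.18). The other lists in TBT against ROSI had 8 higher and 1 lower of 14 TGF-β targets, and 6 and 0 of 12 TGF-β pathway genes. Of 15 relatives 8 were higher and 2 lower, and of 19 receptors and partners 4 and 3. Of 14 YAP/TAZ-TEAD components 3 were higher and 2 lower, and of 6 WNT targets 2 and 1. The calls in these lists use the threshold and the background shares given above. Some genes stand in more than 1 list, and nothing is called particular to a list.

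Markers of other cells that make these proteins differed widely in level between lists. Of 6 platelet and megakaryocyte markers, a source of Thbs1 in blood, 2 were above 1 CPM, and the list summed to 5.62 to 6.91 CPM in DMSO, 3.48 to 5.69 in ROSI and 5.21 to 6.43 in TBT; Pf4 was at 0 in all ROSI libraries and Gp9 in all TBT libraries. Of 6 endothelial markers 2 were above 1 CPM (7.13 to 9.36 in DMSO, 2.26 to 4.42 in ROSI and 5.02 to 7.49 in TBT), with Tie1 at 0 in all libraries. Smooth muscle markers, 5 of 6 above 1 CPM, summed to 719 to 926 in DMSO, 343 to 398 in ROSI and 624 to 1094 in TBT, sums carried mostly by Acta2. Of the 5 tested, 3 were lower and 0 higher with ROSI, and 1 higher and 0 lower with TBT. The higher one was Myh11, from 5.01 ± 2.57 CPM in DMSO to 20.8 ± 8.42 in TBT (log2 fold change 2.08 ± 0.33). Macrophage markers summed to 22.9 to 26.6 CPM in DMSO, 19.06 to 30.09 in ROSI and 18.2 to 34.8 in TBT. The chondrocyte list summed to 69.1 to 77.9, 45.7 to 81.5 and 42.1 to 77.0 CPM, the osteoblast list to 194 to 243, 128 to 193 and 175 to 256, and the tendon list to 2.34 to 5.46, 1.40 to 2.46 and 1.93 to 5.13. The macrophage sum was mostly Cd68 and Cd14. Runx2 made up almost all of the osteoblast sum (216 ± 20.3 CPM in DMSO). Sox9 (60.9 ± 3.5 CPM in DMSO) and Comp (10.6 ± 3.28) made up most of the chondrocyte sum. Bglap, Bglap2, Sp7, Ibsp and Dmp1 averaged under 1 CPM in each group, as did Acan, Col2a1, Matn3 and Hapln1. The part of these cells in the results was not tested.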

How the data were processed

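The authors deposited raw read counts per gene symbol (23955 symbols, 12 libraries) and regularized-log values on a log2 scale; the latter entered 1 alternative. Per the labels' protocols, ribosomal RNA was removed and single non-directional 50 nt SOLiD reads were made, so reads from overlapping genes, on either strand, cannot be told apart. By whole gene span, introns included, the members with an overlap were Smoc2 (4930474M22Rik and Gm52280), Thbs3 (LOC115489723) and Ctgf (Gm15270). The overlapping genes are all noncoding in the RefSeq annotation, and of them 4930474M22Rik has a row of its own in the count table. Whether exons overlap, and so whether the counts of these members are touched, was not tested. The submitters' processing notes name mm9 as the build and list DESeq2, SAMtools and FastQC; aligner, counter and gene models: not given in the sources used here. No pair of the 10 members shares a 50-base stretch of transcript (GENCODE M21, 45 pairs).

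The counts went into edgeR 4.0.16 (R 4.3.3): filterByExpr, TMM factors, 1 quasi-likelihood fit of all 12 libraries without covariates, Benjamini-Hochberg adjustment over 12323 genes and a threshold of 0.05. The SE was taken from the fold change and its F statistic. CPM is the count scaled by the TMM library size; levels per kilobase use GENCODE M21 exon lengths. Alternatives used limma 3.58.1 and DESeq2 1.42.0. No 2 libraries of a group were copies (lowest chi-square per degree of freedom 4.66). Scripts were tested on simulated data.

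Members and lists were chosen with earlier results of these data known. In each list and comparison, up to 3 called genes with the smallest p are named. Comp in ROSI and Tcf7 were named after their values were seen, as were Smoc1, Wisp3, Cfd, Itga6 in ROSI and Myh11 in TBT. So were Mkl1 and the named stromal, macrophage, osteoblast and chondrocyte markers. For each member with a mean of at least 5 CPM, the 3 most similar genes are named (log2 CPM with a prior count of 2). Osteoblast, chondrocyte and tendon marker lists had 1, 2 and 1 genes above 1 CPM in each group.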

Additional observations from a re-analysis of the deposited data

How the results depend on the processing

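Every call of a member held its direction and its side of the threshold in each of the 12 fits without 1 library and the 10 other alternatives in which that gene was fitted; of 587 such member values 574 kept both. The exceptions were values that had not passed. Wisp1 in TBT against ROSI passed in 7 fits, so that 1 member was called lower there with upper-quartile factors, with no filter, with DESeq2, and without DMSO replicate 3 and TBT replicate 4 together (a range of 0 to 1 without single libraries). Ctgf in TBT against DMSO turned to -0.021 with upper-quartile factors, -0.06 without DMSO replicate 3, -0.13 without TBT replicate 1 and -0.0215 without DMSO replicate 3 and TBT replicate 4 (-0.13 to 0.22 without single libraries), and Cyr61 turned to 0.11 without DMSO replicate 2 (-0.13 to 0.11 without single libraries) and 0.0426 with GC-corrected offsets. The sizes of the changes depended on the scale. Changes at low counts are shrunken on the deposited regularized-log values. On these the ROSI changes against DMSO were -0.58 for Thbs3, -0.49 for Nov and -1.94 for Smoc2, smaller than in the main fit. There TBT gave -0.70 for Thbs3 and -0.54 for Nov. On counts without single libraries, the ROSI changes were -1.73 to -1.39 for Thbs3, -1.39 to -1.25 for Nov and -3.32 to -3.08 for Smoc2. A minimum mean of 5 CPM removes Thbs3 and Nov, which leaves 2 members called in TBT against DMSO, 1 of them lower. Over all genes, TBT against DMSO called 1879, 1160 with a replicate block, 1199 with only the 2 groups, 3741 without DMSO replicate 3 and TBT replicate 4, and 1019 to 4124 without single libraries (4124 without TBT replicate 4). TBT against ROSI called 2940, 4650 without both libraries and 1732 to 4826 without single ones (4826 without TBT replicate 4). Same-numbered libraries did not deviate together (12 pairs, correlation -0.43 to 0.14; 1 of 12 libraries correlated best with its own number), and the replicate block changed no member call. The GC correction and the joint removal were chosen after seeing the data. Counts of under 50 per library limit Thbs3 and Nov, and Thbs4 was not testable.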

Other observations

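Ratios of members within a library do not depend on library scaling. The ratio of Thbs2 to Thbs1 counts was 7.51, 5.54, 7.40 and 10.3 in DMSO, 3.18, 6.76, 3.00 and 3.12 in ROSI and 5.53, 7.09, 5.29 and 7.39 in TBT, so that 3 of 4 ROSI libraries lay below all others. The ratio of Ctgf to Cyr61 was 0.257 ± 0.020 in DMSO, 0.120 ± 0.015 in ROSI and 0.277 ± 0.079 in TBT, with ROSI below all other libraries. The ratio of Wisp2 to Wisp1 was 1.67 ± 0.469, 1.01 ± 0.259 and 5.20 ± 1.58, with all TBT libraries, at 3.82 to 7.30, above the highest DMSO value of 1.99. These ratios come from the comparisons the genes were chosen with and have no test.

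Several members had their highest or lowest level in the same library of a group, though some library must be highest for each gene. Whether such library differences are shared beyond this was not tested. DMSO replicate 2 held the highest DMSO level of Thbs1 (887 CPM), Ctgf (64.6), Cyr61 (249), Nov (6.55) and Smoc2 (48.9). DMSO replicate 4 held that of Thbs2 (5451), Thbs3 (7.11) and Wisp2 (53.9). TBT replicate 1 held the highest TBT level of Thbs1 (864), Ctgf (67.6), Wisp1 (17.3) and Smoc2 (40.2). ROSI replicate 2 held the lowest ROSI level of Thbs1 (138), Ctgf (9.64) and Cyr61 (71.1), and the highest of Wisp1 (31.0). Its Smoc2 level (3.63) was near that of ROSI replicate 1 (3.76), and its Thbs2 level (931) was above that of replicate 1 (739). The paralog of Smoc2 went the other way: Smoc1 averaged 0.719 ± 0.496 CPM under DMSO and 3.92 ± 0.618 under ROSI (log2 fold change 2.26 ± 0.42, edgeR adjusted p = 7.5e-04), and at 1.81 ± 0.750 in TBT, where it did not pass (1.16 ± 0.47, edgeR adjusted p = 0.099). Wisp3, the remaining CCN gene, did not pass the filter; its mean was 1.08 ± 0.437 CPM under DMSO, 0.773 ± 0.483 under ROSI and 0.831 ± 0.395 under TBT.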
